A study of Mus musculus with 4 samples.

Results

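Amy1, Prb1, Prh1, Prpmp5 and Pip encode secreted proteins of mouse saliva: an amylase, proline-rich proteins and the prolactin-induced protein. The genes were chosen by name, and every probe carrying 1 of the 5 names was taken, which gave 9 probes of the 55681 on the array and 5 genes of the 34844 gene names. Expression was read from 4 Agilent arrays of the whole mouse genome in 1 colour, with salivary gland (SG) RNA of 1 sample on each. Samples were from female mice of the C57/BL6 strain at 10 weeks of age. The Myd88-/- group (labelled Myd88-null, 2 arrays) lacks the adaptor protein of Toll-like and interleukin receptors in the whole animal, and the Myd88+/+ group (wild type, 2 arrays) carries no alteration. All mice were untreated offspring of heterozygous parents. The labels give the tissue as submandibular (SMGs) plus sublingual glands (SLGs), dissected free of lymph nodes, connective tissue and fat, while the study's text speaks of SMGs and of more mice per genotype than there are arrays, so how many animals stand behind an array is not known. P-values therefore measure the spread between these samples, which may be partly technical.

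Acinar cells of the SGs make most of the protein of saliva and store it in granules that are released on nerve stimulation. Amylase starts the digestion of starch, the proline-rich proteins bind dietary tannins and coat the mouth's surfaces, and Pip is a small glycoprotein that binds bacteria. In rodents, amylase and proline-rich proteins are above all products of the parotid gland, whereas Pip is made in abundance in other SGs too, and the genes of the proline-rich proteins lie together in 1 cluster of similar, repetitive sequences.

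The sequences of the probes that stand for each gene are shown first, because likeness between family members decides what a probe can tell apart. Each probe was 60 bases long. Capitals mark the longest run, where it reached 15 bases, that is identical in a probe for a gene of another name on the array. Coordinates are those of the scanner files (mm9).
Amy1, chr3:113258901-113258960, minus strand: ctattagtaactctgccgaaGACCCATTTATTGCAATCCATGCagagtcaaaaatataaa
Prb1, chr6:132157172-132157231, minus strand: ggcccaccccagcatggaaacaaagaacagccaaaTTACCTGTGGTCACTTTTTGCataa
Prpmp5, chr6:132262189-132262248, minus strand: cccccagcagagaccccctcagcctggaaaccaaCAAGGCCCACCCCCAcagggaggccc
Prh1, chr6:132522295-132522354, plus strand: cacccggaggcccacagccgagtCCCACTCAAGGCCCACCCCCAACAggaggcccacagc
Pip, chr6:41801874-41801933, plus strand: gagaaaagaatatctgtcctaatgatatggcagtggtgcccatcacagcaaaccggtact

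The Prh1 probe shared 24 bases with the probe for its neighbour Prp2, the Amy1 probe 23 bases with a probe for the amylase gene Amy2a5, and the Prb1 probe 21 bases with a probe for the neighbouring gene Gm4736. The Prpmp5 probe shared 15 bases with the Prp2 probe, and the Pip probe no more than 13 bases with any probe for another gene. The Prpmp5 probe shown was annotated in the files to transcripts of Prpmp5, Prb1, Gm8882 and Gm4736, and the Prb1 probe to Prb1 and Gm8882, so neither separates these genes. The partner probes with the shared runs in capitals were these.
Prp2, chr6:132550457-132550516: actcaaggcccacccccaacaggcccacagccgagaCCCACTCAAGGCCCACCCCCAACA
Amy2a5, chr3:113084781-113084840: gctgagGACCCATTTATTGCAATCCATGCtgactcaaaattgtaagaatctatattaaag

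Some of the probes for the proline-rich proteins carry the repeat of the proteins in their letters. GGCCCAC, read on the probe strand, occurred 3 times in each Prh1 probe and 1 time in the Prpmp5 and the Prb1 probes shown. It was absent from the other Prb1 and Prpmp5 probes, and was present in 0.19% of all 55681 probes. Triplets beginning with CC, the codons of proline, numbered 8 in the best frame of the Prh1 probe shown, 7 in that of Prpmp5, 3 in that of Prb1 and 2 in those of Amy1 and Pip. The Prb1 probe at base 1513 held 2 and the Prpmp5 probe at base 1063 held 0. At least 5 such triplets were found in 1.24% of all probes.

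All 9 probes were well above background on all 4 arrays, and none was saturated or marked as an outlier. Values below are log2 of the processed signal minus the log2 of the array's 75th percentile. A value of 0 is thus the 75th percentile of the array, 1 unit is a doubling, and the level of 1 probe is not comparable with that of another. The Myd88 probe, at base 1629 of its transcript, read 1.51 and 1.41 on the Myd88-/- arrays and 1.15 and 1.07 on the Myd88+/+ arrays. It was thus not lower on the Myd88-/- arrays, and since the deleted exons are not given in the sources used here it does not check the labels. The groups are named by their labels, and each direction below rests on them.

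The signals of the 3 proline-rich protein genes were lower on both Myd88-/- arrays than on either Myd88+/+ array, by 4.77- to 5.31-fold in the mean, and the Myd88-/- arrays differed from each other by 3.78- to 3.95-fold. Pip was slightly higher on both Myd88-/- arrays, and Amy1 was lower on 1 of them only. limma called none of the 5 genes after Benjamini-Hochberg adjustment over the 22312 genes tested, and called 0 of all genes, or 0% of them. At an unadjusted p under 0.05, 3 of the 5 genes were lower, against 6.83% of all genes, and 1 was higher, against 9.82% of all genes. An unpaired t-test, the study's test, gave the 3 lower genes an unadjusted p of 0.138 to 0.151. The 3 lower genes were at least 2-fold lower, as were 3.42% of all genes. Both Myd88-/- arrays lay below both Myd88+/+ arrays for 3 of the 5 genes, against 18.7% of all genes, and above them for 1, against 33.2%. With 2 arrays a group, an exact permutation test of 1 gene cannot give a two-sided p below 0.333.

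**Figure D1:**
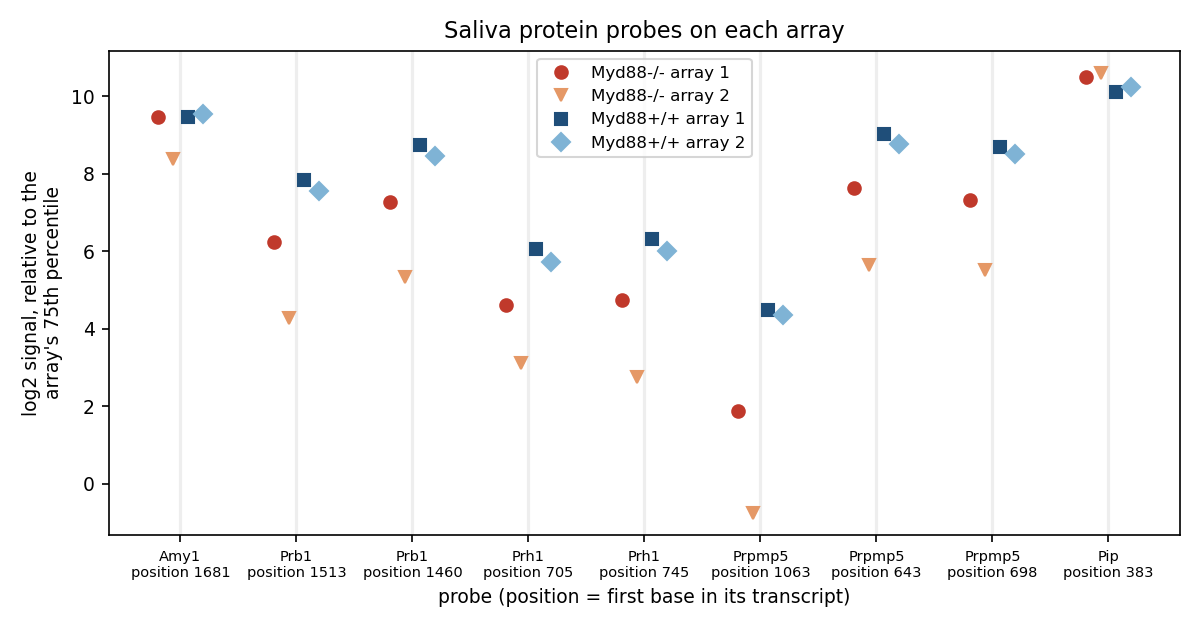
Log2 signal relative to the array's 75th percentile (y axis) of the 9 probes for Amy1, Prb1, Prh1, Prpmp5 and Pip (x axis, with the first base of the probe in its transcript), with 1 point for each of the 4 arrays. In all 7 proline-rich probes Myd88-/- array 2 was lowest, Myd88-/- array 1 next and the Myd88+/+ arrays highest, while for Pip both Myd88-/- arrays were highest.

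Prb1 encodes a proline-rich protein of the BstNI subfamily. Its brightest probe, which stands for the gene, read 7.26 and 5.34 on the Myd88-/- arrays and 8.73 and 8.45 on the Myd88+/+ arrays. The second Prb1 probe, at base 1513 of the transcript and annotated to Prb1 alone, read 6.24 and 4.28 against 7.84 and 7.54. It shares a run of 25 bases with a probe for Gm4736, so its annotation does not show that it separates these genes. Both Prb1 probes gave the same order, with Myd88-/- array 2 lowest, and their difference from each other varied by 0.17 over the 4 arrays. The log2 difference for the gene, Myd88-/- minus Myd88+/+, was -2.29 (SE 0.71, adjusted p = 0.270 from limma), with a 95% confidence interval of -4.33 to -0.25.

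Prh1 encodes a proline-rich protein of the HaeIII subfamily. Its brightest probe read 4.73 and 2.75 on the Myd88-/- arrays and 6.31 and 5.997 on the Myd88+/+ arrays. The second probe, at base 705 and annotated to both Prh1 and Prp2, read 4.62 and 3.11 against 6.05 and 5.73. The groups did not overlap in either probe, and the 2 probes overlap each other by 20 bases, so they are not separate observations. The log2 difference for the gene was -2.41 (SE 0.74, adjusted p = 0.267 from limma), that is 5.31-fold lower.

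Prpmp5 encodes a further member of the family. The probe that stands for it read 7.62 and 5.65 on the Myd88-/- arrays and 9.02 and 8.77 on the Myd88+/+ arrays. A second probe, which shares 39 bases with it but is annotated to Prpmp5 alone, read 7.32 and 5.50 against 8.68 and 8.52. The log2 difference for the gene was -2.25 (SE 0.73, adjusted p = 0.279 from limma), that is 4.77-fold lower. The third Prpmp5 probe, at base 1063, is likewise annotated to Prpmp5 alone, and shares no run of 10 or more bases with any other probe of the 5 genes. It read 1.87 and -0.76 on the Myd88-/- arrays and 4.47 and 4.36 on the Myd88+/+ arrays. Its log2 difference was -3.86 (SE 0.97, adjusted p = 0.290 from limma over the 31016 probes tested), or 14.5-fold lower, against -2.25 and -2.19 for the other Prpmp5 probes. The gaps between this probe and the other Prpmp5 probes varied by 1.997 and 2.10 log2 units over the 4 arrays, while the gaps between the other probes of 1 gene varied by 0.17 to 0.62.

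Over the 7 proline-rich probes the log2 difference ran from -3.86 to -2.03, and in all 7 the groups did not overlap, against 17.8% of all 31016 probes in this direction. All 7 had an unadjusted p under 0.05 from limma, against 5.92% of all probes. These probes are not 7 independent measurements, since they share arrays, sequence and annotated transcripts. Myd88-/- array 1 lay 1.27 to 2.54 log2 units below the mean of the Myd88+/+ arrays, and Myd88-/- array 2 lay 2.78 to 5.17 below it. The Myd88-/- arrays were 1.51 to 2.63 apart, and the Myd88+/+ arrays 0.12 to 0.32 apart. Over all genes tested, Myd88-/- array 2 lay more than 1 log2 unit below Myd88-/- array 1 in 0.955%. The Myd88+/+ arrays were more than 1 log2 unit apart, in either direction, in 4.31% of all genes and in 0 of the 5 genes. At that share, 0 of 5 is unremarkable. Of the probes that stand for the 3 genes, those of Prb1 and Prpmp5 share annotated transcripts, and that of Prh1 is annotated to Prh1 alone. Between these probes the log2 ratios within an array varied little. A single scaling factor per array leaves such ratios as they are. Prb1 minus Prpmp5 was -0.36 and -0.31 on the Myd88-/- arrays and -0.29 and -0.32 on the Myd88+/+ arrays, a range of 0.07. Prb1 minus Prh1 varied by 0.17 and Prh1 minus Prpmp5 by 0.19, whereas Prb1 minus Pip varied by 3.89. For 1 pair of probes annotated to 1 gene each, the ratio varied more. The Prpmp5 probe at base 1063 minus the Prb1 probe at base 1513 was -4.37 and -5.04 on the Myd88-/- arrays. On the Myd88+/+ arrays it was -3.36 and -3.19. This Prpmp5 probe also departed from the other Prpmp5 probes. The Prb1 probe at base 1513, which shares 25 bases with a Gm4736 probe, read 6.24 and 4.28 against 7.84 and 7.54. The Prh1 probe that stands for its gene, annotated to Prh1 alone, read 4.73 and 2.75 against 6.31 and 5.997, a nearly constant gap.

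The size of the difference turned on which Myd88-/- array was used. Prb1 differed by -3.25, Prh1 by -3.40 and Prpmp5 by -3.24 log2 units when Myd88-/- array 1 was left out. When array 2 was left out instead, the values were -1.33, -1.42 and -1.27. The direction was the same either way. When arrays were scaled to their medians, limma estimated 1 spread for all genes and called all 3 (adjusted p = 0.0047 for Prb1, 0.0021 for Prh1 and 0.0058 for Prpmp5), whereas under every other setting the adjusted p from limma was 0.102 or above.

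**Figure D2:**
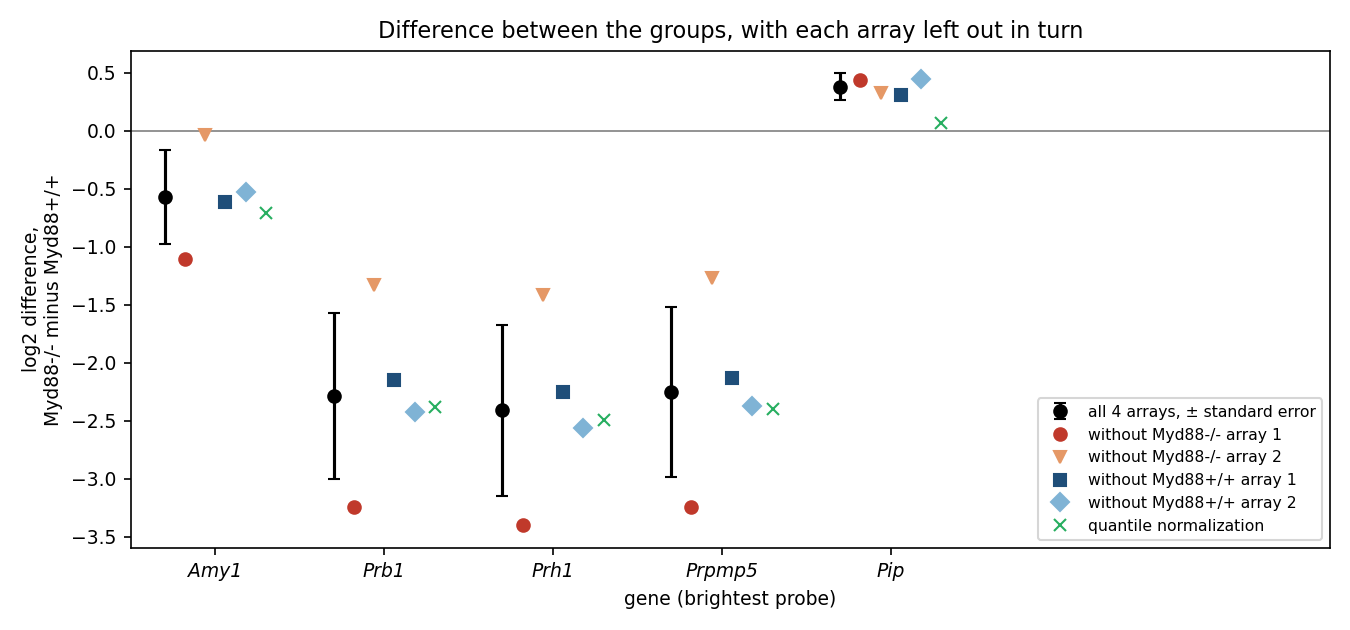
Log2 difference between the groups, Myd88-/- minus Myd88+/+ (y axis), for the 5 genes by their brightest probe (x axis), from all 4 arrays (black, with the standard error), without each array in turn, and after quantile normalization. Leaving out Myd88-/- array 1 or 2 moved the proline-rich genes to about -3.3 or -1.3, Amy1 went to -0.03 without Myd88-/- array 2, and quantile normalization took Pip to 0.07.

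Amy1, the salivary amylase gene, was measured by 1 probe annotated to Amy1 alone. It read 9.46 and 8.39 on the Myd88-/- arrays and 9.46 and 9.54 on the Myd88+/+ arrays. Myd88-/- array 1 lay between the Myd88+/+ arrays, and array 2 lay 1.11 below their mean, so the groups overlapped. The log2 difference was -0.57 (SE 0.40, adjusted p = 0.539 from limma), with a 95% confidence interval of -1.73 to 0.58, and without Myd88-/- array 2 it was -0.03. The ratio of this Amy1 probe to the brightest Prb1 probe was 0.73 and 1.09 log2 units on the Myd88+/+ arrays. On the Myd88-/- arrays it was 2.20 and 3.04, so these probes did not change by the same factor. A probe annotated to both Amy1 and Amy2a5, given below, was nearer to Prb1, with a log2 difference of -2.03 against -2.29.

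Amy2a5, an amylase gene of the pancreatic type next to Amy1, followed the proline-rich genes more closely than Amy1 did. Its probe near the transcript's end, the 1 printed above, read 6.91 and 5.14 on the Myd88-/- arrays and 7.80 and 7.66 on the Myd88+/+ arrays. A second probe, annotated to both Amy2a5 and Amy1, read 7.79 and 5.98 against 9.07 and 8.76. Both showed the order of the Prb1 probes, and the log2 difference was -1.71 for the probe annotated to Amy2a5 alone and -2.03 for the shared probe, which as the brighter stands for the gene (adjusted p = 0.285 from limma). Since the second probe is annotated to both genes, the amylase probes did not give 1 answer for amylase as a whole. Of the 9 listed amylase names 3 were on the array, and the probe for Amy2a4 was above background on no array. Of 8 pancreas markers, Cpa1, Cpb1 and Prss2 were not measurable on enough arrays to be tested, and the summed level of the 5 tested was 1.31 and 1.33 times the array's 75th percentile in the Myd88-/- group and 1.26 and 1.23 times in the Myd88+/+ group.

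Pip was measured by 1 probe, which read 10.50 and 10.61 on the Myd88-/- arrays and 10.10 and 10.24 on the Myd88+/+ arrays. Both Myd88-/- arrays were above both Myd88+/+ arrays. The log2 difference was 0.38 (SE 0.11, adjusted p = 0.264 from limma), that is 1.30-fold higher, with a 95% confidence interval of 0.05 to 0.71. The probe lay 0.24 to 0.36 log2 units below the brightest probe of its array, at processed signals of 326046 to 370676. Over the 66 genes with a mean log2 signal above 9 the median difference was 0.26, against 0.06 over all genes, with quartiles of 0.16 and 0.37, so the value for Pip is close to that of other very bright probes. After quantile normalization the log2 difference of Pip was 0.07 (adjusted p = 0.778 from limma), and after cyclic loess it was 0.22.

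Pip's relatives lie beside it on chromosome 6. Of the 4 other listed genes of this family, all on the array, Sval1 and Sval3 were too dim to be tested. Sval2 was higher on the Myd88-/- arrays, with 1.26 and 1.15 against 0.62 and 0.71 (log2 difference 0.54, adjusted p = 0.204 from limma), but of its other probes 1 gave 0.56 and 1 gave -0.09. Sva read -2.23 and -2.03 against -1.59 and -1.71. Neither passed the adjusted threshold.

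The proline-rich genes were read next to their neighbours on chromosome 6. Within 500 kb of the Prb1 probe 6 genes were tested, and 5 of these were lower on both Myd88-/- arrays, against 18.7% of all genes. Of the 5, Prh1 and Prpmp5 are members given above, and probes for Prp2 and Gm4736 share runs of bases with member probes. Prp2 is a proline-rich gene 28.2 kb from Prh1. It read 5.78 and 3.82 on the Myd88-/- arrays and 7.26 and 6.99 on the Myd88+/+ arrays. LOC100502592 read 5.85 and 3.85 against 7.33 and 7.11. Gm4736 read 6.43 and 4.32 against 7.96 and 7.65 in its brightest probe and 2.26 and 0.81 against 3.95 and 3.63 in the other. All 3 had the order of the members, with Myd88-/- array 2 lowest.

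The sixth gene went the other way. A630073D07Rik (chr6:132575134-132575193 in mm9), 52.8 kb from the Prh1 probe, read 7.29 and 7.28 on the Myd88-/- arrays and 6.01 and 6.03 on the Myd88+/+ arrays, a log2 difference of 1.26 (SE 0.10, adjusted p = 0.194 from limma), and here the Myd88-/- arrays agreed within 0.005. Beyond it lie bitter taste receptor genes, of which 18 had a probe within 500 kb of the proline-rich probes and 5 were tested. Tas2r113 read 3.12 and 2.999 against 2.39 and 2.38, and Tas2r140 -2.64 and -2.58 against -3.69 and -3.76. The lower signals were thus not shared by all genes of the region.

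**Figure D3:**
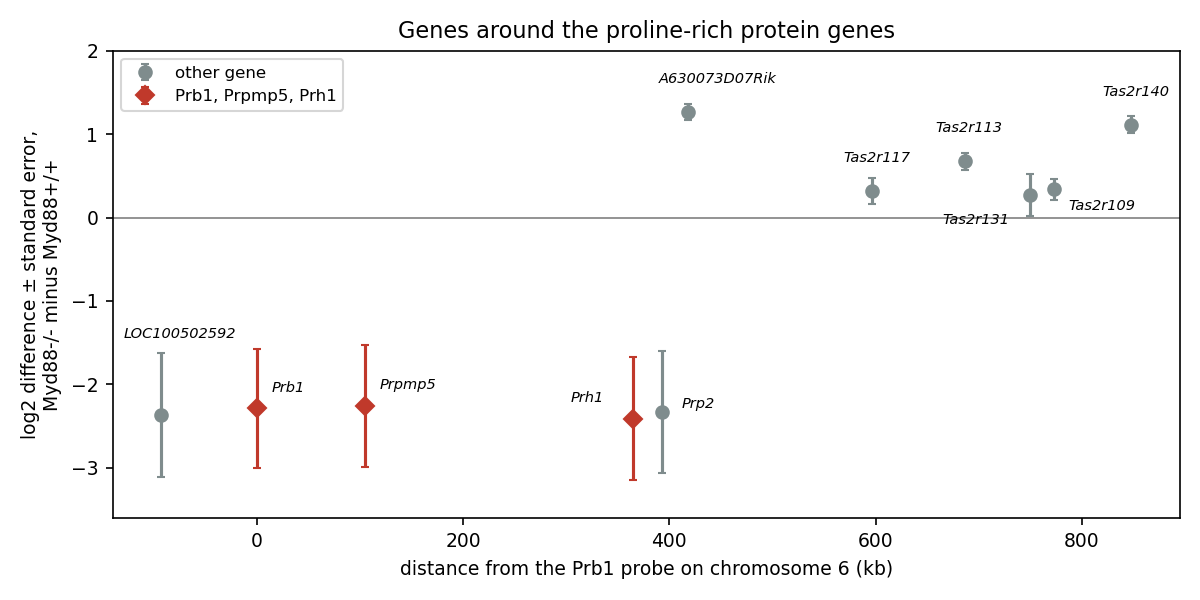
Log2 difference between the groups ± standard error (y axis) of the tested genes within 500 kb of the Prb1 or the Prh1 probe, against the distance from the Prb1 probe in kb (x axis, mm9). Gm4736 is not drawn because its brightest probe has no position in the files. The 3 proline-rich genes, Prp2 and LOC100502592 lie between -2.41 and -2.25, and A630073D07Rik and the taste receptors lie above 0.

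Because the proline-rich genes had like differences, the sequence before their starts was compared. All 5 genes had an entry in the RefSeq table of promoters (GRCm38.p6), with 2 starts for Amy1. The 300-base promoters of Prb1 and Prpmp5 were 96.6% identical over 291 bases when aligned without gaps, and those of Prh1 and Prp2 77.7% identical over 265 bases. No other pair among the promoters of the 5 genes and Prp2 was above 37.3%. An alignment without gaps loses likeness past an inserted or missing base, so low values do not show that promoters are unrelated. The 80 bases before each annotated start are given for the 4 proline-rich genes, with TATAAA, the core of a TATA box, in capitals.
Prb1, chr6:132210522-132210601, minus strand: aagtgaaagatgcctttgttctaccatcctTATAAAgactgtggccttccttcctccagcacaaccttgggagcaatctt
Prpmp5, chr6:132314744-132314823, minus strand: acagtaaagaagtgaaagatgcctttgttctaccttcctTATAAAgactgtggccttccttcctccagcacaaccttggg
Prh1, chr6:132569762-132569841, plus strand: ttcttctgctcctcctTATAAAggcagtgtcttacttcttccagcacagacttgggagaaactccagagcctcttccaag
Prp2, chr6:132595831-132595910, plus strand: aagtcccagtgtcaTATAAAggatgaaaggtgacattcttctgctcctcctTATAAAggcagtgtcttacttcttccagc

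TATAAA was found 50, 41 and 64 bases before the annotated starts of Prb1, Prpmp5 and Prh1, and 66 and 29 bases before that of Prp2. On the gene strand, the strand searched here, it was present in the 80-base window of 3.37% of the 32851 promoters in the table. On either strand the share was 4.75%. The longest run common to all 4 proline-rich windows was TCCTTATAAAG, which holds TATAAA. It was in 10 of the 32851 windows on either strand (0.0304%), and these 4 are among them. The run was picked from these same windows, some of which are close copies, so its rarity is not a test. TATAAA also stood 28 bases before the start of Pip and 63 bases before 1 of the starts of Amy1. The probes annotated to Pip alone and to Amy1 alone did not follow the proline-rich genes. A match of letters is a description and not a measured binding site.

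Other genes for secreted saliva proteins were taken from lists to see which shared the order of the proline-rich genes. Of 22 tested genes beyond the 5, 8 were lower on both Myd88-/- arrays, against 18.7% of all genes, 8 were higher on both, against 33.2%, and 6 overlapped. The median log2 difference was -1.01 over the 4 tested genes of the proline-rich list beyond the members, -0.13 over the 15 tested of 16 further secreted proteins, and 0.06 over all genes. limma called none of them after adjustment. In 5 of the 22, Myd88-/- array 2 lay more than 1 log2 unit below array 1, against 0.955% of all genes. These were Prp2, Amy2a5, Smr3a, Cst10 and Dnase1.

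Cst10, which encodes a cystatin, a protease inhibitor, read 7.67 and 5.49 on the Myd88-/- arrays and 9.25 and 8.98 on the Myd88+/+ arrays, a log2 difference of -2.53. Dnase1, a secreted nuclease, read 9.13 and 7.47 against 9.67 and 9.73. Smr3a, of the family of submandibular androgen-regulated proteins, read 8.31 and 6.68 against 9.45 and 9.26 in its brightest probe by mean signal, but its other probe read 8.59 and 7.49 against 8.46 and 8.50, so its probes disagreed on Myd88-/- array 1. As with Prb1, array 2 was the lowest of the 4 in each of these genes.

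Other abundant saliva proteins did not show this order. Prol1, a mucin-like proline-rich protein of the SMGs, read 9.75 and 9.68 on the Myd88-/- arrays and 9.31 and 9.37 on the Myd88+/+ arrays. Car6, the secreted carbonic anhydrase, read 10.42 and 10.46 against 10.03 and 10.08. Dcpp1, Dcpp2 and Dcpp3, demilune cell proteins, differed by 0.30, 0.34 and 0.32, close to Pip's 0.38. Smgc, a mucin-like protein of the SMGs, read 10.08 and 9.95 against 8.33 and 8.56 (log2 difference 1.57, adjusted p = 0.194 from limma). Lpo, lactoperoxidase, read 7.31 and 7.48 against 7.10 and 6.81, and Muc19, the gel-forming mucin of the SLGs, overlapped between the groups.

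**Figure D4:**
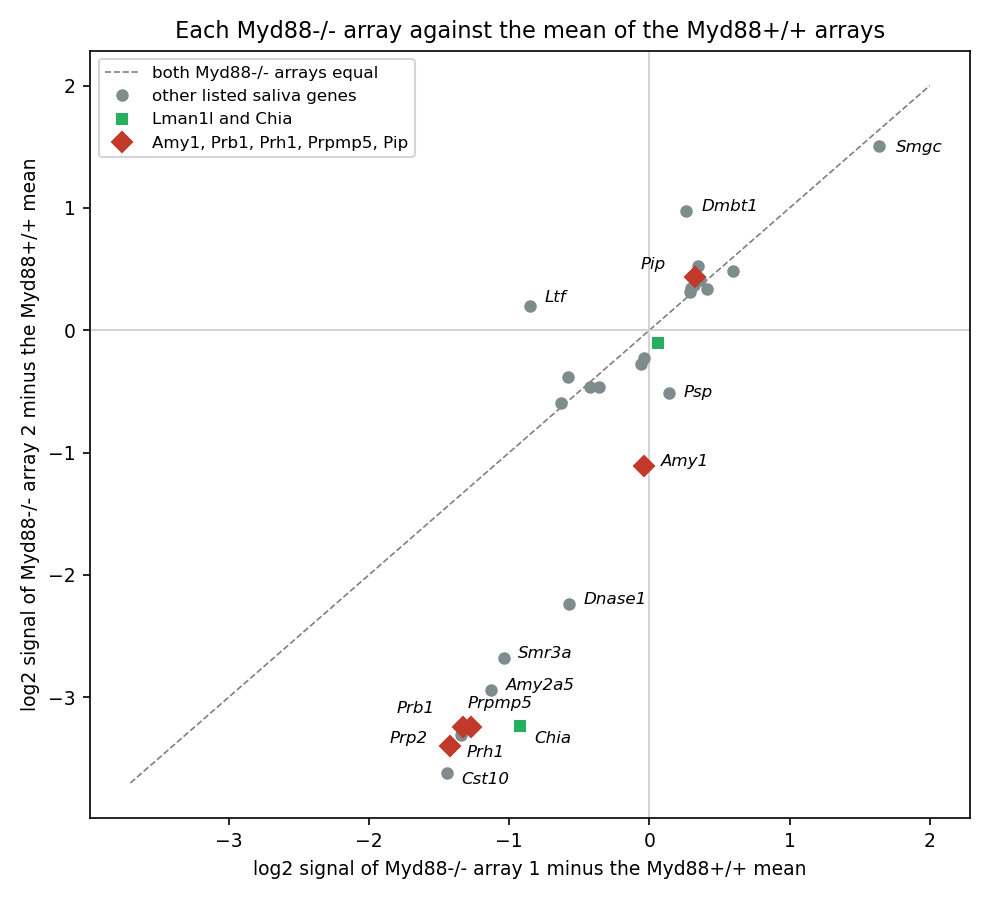
Log2 signal of Myd88-/- array 2 (y axis) and of Myd88-/- array 1 (x axis), each minus the mean of the Myd88+/+ arrays, for the 5 genes (red), other listed saliva genes (grey) and 2 further parotid markers (green). Prb1, Prh1 and Prpmp5 lie at about -1.3 on array 1 and -3.3 on array 2, below the dashed line of equal values and beside Prp2 and Cst10, while Pip lies near the line above 0.

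The parotid gland is not part of the labelled tissue, and genes it is known for were among those that moved with the proline-rich genes. All 5 parotid markers listed beside the members were above background and tested. Chia, an acidic chitinase, read 7.77 and 5.46 on the Myd88-/- arrays and 8.86 and 8.52 on the Myd88+/+ arrays. Psp, the parotid secretory protein, read 10.39 and 9.74 against 10.23 and 10.28, so that array 2 alone was low, as for Amy1. Car6 was higher, as given above, and Lman1l, a lectin-like protein, read 6.51 and 6.35 against 6.50 and 6.40. In all, 4 of the 5 had a lower mean. Both Myd88-/- arrays were below both Myd88+/+ arrays in 2 (Chia and Dnase1), against 18.7% of all genes, and above them in 1 (Car6), against 33.2%. Over the 5 markers the median log2 difference was -0.18, and Myd88-/- array 1 minus array 2 had a median of 0.65. Their summed level was 3582 and 2569 times the 75th percentile on the Myd88-/- arrays and 3614 and 3623 times on the Myd88+/+ arrays. This sum is weighted to its brightest probes, those of Psp and Car6. The part of the parotid markers in the differences of the proline-rich genes was not tested. In bulk tissue, fewer cells of a type and less RNA per cell cannot be told apart.

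Of 10 tested markers of acinar cells in general, 8 had a higher mean on the Myd88-/- arrays. Their median log2 difference was 0.23, against 0.06 over all genes, and the Myd88-/- arrays differed by a median of 0.08. Aqp5, the water channel of acinar cells, read 7.11 and 6.90 against 6.81 and 6.87, and Bhlha15, a transcription factor of secretory cells, 6.88 and 6.82 against 6.77 and 6.87. Of the 5 tested SLG markers 4 had a higher mean, and of the 5 SMG acinar markers 3. Of 7 tested genes of granular ducts 4 were lower, with a median of -0.15. Markers of tissue beside the glands were lower on both Myd88-/- arrays in all 7 skeletal muscle genes tested (median log2 difference -4.07) and all 5 adipocyte genes (-0.76). The same held for 7 of the 8 lymphocyte genes (-3.86 over the 8), the groups overlapping for Cd3e. Of all genes, 18.7% were lower in this way. The summed level of the muscle genes was 2.41 and 2.27 on the Myd88-/- arrays and 19.5 and 109 on the Myd88+/+ arrays. That of the adipocyte genes was 149 and 237 against 322 and 326. The lymphocyte genes summed to 4.95 and 5.61 against 21.9 and 13.2. Such sums are weighted to their brightest probes. On the Myd88-/- arrays the brightest lymphocyte gene was Cd3e, at 1.73 and 2.00 against 1.87 and 1.97. In these lists Myd88-/- array 1 minus array 2 had a median of 0.05, -0.76 and -0.28, against 1.92 for Prb1, and their part in the differences of the 5 genes was not tested.

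The genes whose pattern over the 4 arrays was nearest to each member, by the root mean square distance between values centred on each gene's mean, were as follows. Prp2 and LOC100502592 were among the 3 nearest of each proline-rich gene, at distances of 0.03 to 0.06 log2 units, and the others were Aspdh for Prb1, Gm2155 for Prh1 and BC037156 for Prpmp5. BC037156 read 7.03 and 4.998 on the Myd88-/- arrays and 8.29 and 8.26 on the Myd88+/+ arrays. The nearest named gene to Pip was Mucl1, a mucin-like gene, at 10.03 and 10.14 against 9.66 and 9.75, a distance of 0.01. The genes nearest to Amy1 were all dim, among them Colec12 at -1.80 and -2.75 against -1.80 and -1.80. With 4 arrays and 22312 genes, near patterns are a description only.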

How the data were processed

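The authors deposited the scanner output of 4 arrays (Agilent Feature Extraction 10.7.3.1, probe coordinates in mm9). Per the file headers, the authors' software subtracted a background model from each spot's intensity and removed spatial trends, and it did not normalize arrays against each other. The deposited processed table, with 4 columns whose names match more than 1 sample, was not used. Array precision is limited by the number of arrays. Spots of a probe were averaged after removal of outlier flags, and values were log2 of the signal minus that of the array's 75th percentile over non-control spots (256, 237, 321 and 269). Probes well above background made up 52.2%, 68.4%, 74.2% and 55.1% of all. A probe was tested when well above background on both arrays of a group, and each gene was represented by its brightest tested probe. Differences were fitted with limma 3.58.1 in R 4.3.3 without covariates, with Benjamini-Hochberg adjustment over all genes and a threshold of 0.05, after tests on simulated data. The named genes were the 5 members with every probe, related genes and markers from lists, neighbours within 500 kb and the 3 genes nearest in pattern. The members and lists were chosen with earlier results of these data known. In all, 18 other settings were tried, 1 of them chosen after seeing the data. Sequences came from the scanner files and, for promoters, from RefSeq (GRCm38.p6), whose coordinates are not those of mm9.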

Additional observations from a re-analysis of the deposited data

How the results depend on the processing

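The 5 log2 differences kept their sign under all 18 alternatives. Those of Prb1, Prh1 and Prpmp5 passed the adjusted threshold with median scaling alone (-2.34, -2.47 and -2.31), and the other 17 alternatives left them above it, as all 18 did Amy1 and Pip. The number of genes called was 0 in the reported fit, with 3715 at an unadjusted p under 0.05, and 199 with normexp background correction, 359 with median scaling, 482 with a trended and robust spread and 1 with the methods' t-test after adjustment (2935 at an unadjusted p under 0.05, among them 1 of the 5 genes). The causes of these moves were not tested. Leaving out 1 array in turn gave log2 differences of -3.25 to -1.33 for Prb1, -3.40 to -1.42 for Prh1, -3.24 to -1.27 for Prpmp5, -1.11 to -0.03 for Amy1 and 0.31 to 0.45 for Pip, and 0 genes called each time. The lone array of a group was then assumed to vary like the other group. With the replicate number as a block (replicate block), the log2 differences were the same, the adjusted p was 0.440 for the 3 proline-rich genes, 0.619 for Amy1 and 0.481 for Pip, and 0 genes were called. Same-numbered arrays deviated in opposite directions over genes (r = -0.37), so the numbers were not taken to pair samples, and with the crossed pairing, added after seeing the data, 0 genes were called. Scaling moved the median of all genes by less than 0.07 log2 units. Precision is limited by 2 arrays a group and, for Pip and Amy1, by signals near the top of the array's range.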
